A study of Gallus gallus with 3 samples.

Results

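The mRNAs of ribosomal proteins and of translation initiation and elongation factors were followed in 3 chicken DT40 cell lines. Members were the probes whose RefSeq accession named a gene with a ribosomal protein symbol (RPL, RPS or RPLP with a number) or a symbol beginning with EIF or EEF, leaving out the EIF2AK kinases. The rule used names alone and no measured value, but it was set with earlier results of these data known. It gave 75 genes, 48 for ribosomal proteins and 27 for factors, on 176 probes, out of 5382 named genes on 11934 named probes. The reference table held 126 symbols of this kind, 70 for ribosomal proteins and 56 for factors, so the array's named probes covered part of the set. EEF1A1, EIF4E, EIF5A and RPS27 were among the genes without a named probe.

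DT40 is a chicken B-cell lymphoma line much used for gene targeting, and H2A.Z is a histone variant that stands in for H2A in part of the nucleosomes. The 3 groups were wild-type DT40, DT40 with a double knock-out (DKO) that carried H2A.Z1, here called full-length, and DT40 with the DKO that carried H2A.Z1ΔC, here called truncated. All 3 were DT40 cells, the last 2 shared the DKO, and the labels do not say whether a line was 1 clone or what drove H2A.Z1. Each group had 1 single-colour (Cy3) Agilent array, so no difference below has a replicate check, no test was possible and no p-value is given.

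Ribosomes are built from a small and a large subunit, each made of ribosomal RNA and many ribosomal proteins that are needed in nearly equal amounts, and a flexible stalk on the large subunit recruits elongation factors. Initiation factors (eIF) bring the initiator tRNA and the mRNA to the small subunit, and elongation factors (eEF) deliver aminoacyl-tRNAs and move the ribosome along the message. Fast-growing cells such as DT40 hold ribosomal protein mRNAs among their most abundant messages. A few ribosomal proteins have paralogs, gene copies with a related sequence, whose use differs between tissues.

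Levels are log2 of the processed signal over the array's 75th percentile, averaged over a gene's probes, and differences are between such levels. A gene was called higher or lower at a log2 difference of 1 or more, which is a 2-fold difference. Between probes printed several times, the difference had an SD of 0.0644 in full-length against wild-type cells, 0.0692 in truncated against full-length cells and 0.0682 in truncated against wild-type cells. Between different probes of 1 ribosomal protein gene the SD was 0.0660, 0.207 and 0.207 in the same order (33 genes), and between those of 1 factor gene it was 0.0800, 0.209 and 0.188 (22 genes). These spreads describe spots and probes within an array pair and hold no variation between cultures. The 3 comparisons share arrays, so each array enters 2 of them.

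The share of probes well above background was 69.7% for wild type, 68.7% for full-length and 72.6% for truncated, and 0 were saturated. Slide 1 and scan 1 held wild type and full-length, and slide 2 and scan 2 held truncated alone. Slide, scan and the truncated group therefore cannot be told apart. The full-length sample has a second set of values in the series matrix, which was no multiple of its scanner values. The robust SD of the log2 ratio was 0.332, a scaled median absolute deviation over spots well above background. The matrix values are therefore given beside the main results that rest on this sample. H2AFZ, the gene of H2A.Z1, had levels of 6.17, 0.81 and -0.21 on the wild-type, full-length and truncated arrays, and whether its probe lies in the introduced construct is not given. Of 16 B-cell marker genes on the array, 15, 16 and 16 were well above background, with a median level of 1.40, 0.93 and 1.83. CD79B, a chain of the B-cell receptor, was highest at 6.53, 6.58 and 6.63, while PAX5, another of these markers, was at -2.57, -2.42 and -3.06. Of 8 T-cell markers 7, 6 and 6 were well above background, with a median level of -5.04, -5.34 and -4.47 and CD3D highest at 6.38, 6.15 and 5.62. The 4 macrophage markers stayed at or under -2.54. Of 6 fibroblast markers 3, 4 and 4 were well above background, with COL1A2, a collagen chain, highest at -2.23, 0.06 and -2.23 and a summed signal of 0.298, 1.15 and 0.265 times the 75th percentile. The part of these markers in the results was not tested.

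Ribosomal protein mRNAs were among the brightest on every array. The median level of the 48 genes was 6.997 on the wild-type array (0.47 to 7.79), 6.93 on the full-length array (-1.17 to 7.65) and 7.09 on the truncated array (-1.70 to 8.02). On each array 46 of the 48 lay above the 90th percentile of all probes, which stood at 2.43, 2.41 and 2.42. The 26 factor genes measured on all arrays had medians of 4.09, 3.85 and 3.87, and 19, 20 and 19 of them lay above that percentile. Only EEF2, which moves the ribosome along the mRNA, and EIF4A3, an RNA helicase of the exon junction complex, reached a level of 6 among the factors, against 37, 37 and 38 ribosomal protein genes. Ribosomal protein probes held 8.55%, 8.32% and 9.14% of the summed signal, and factor probes held 1.62%, 1.53% and 1.56%. Signals of different probes depend on their sequence as well as on the mRNA, so these values place genes in classes and do not order single genes.

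**Figure D1:**
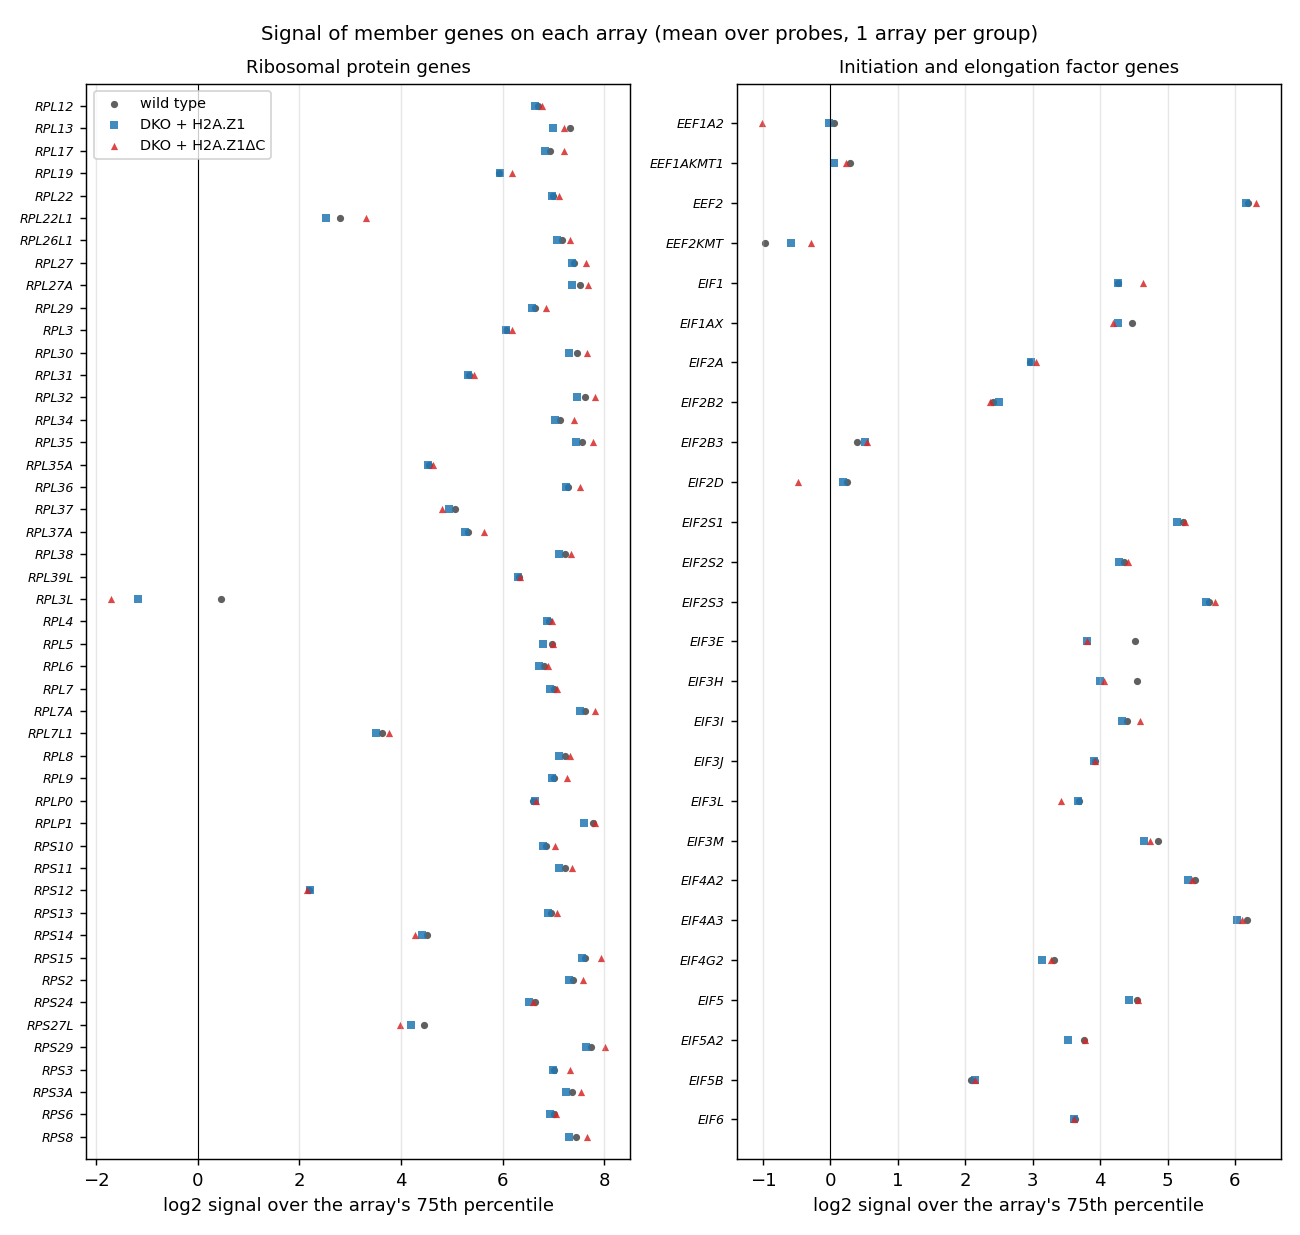
Level of the member genes reported here on the 3 arrays (x axis, log2 signal over the array's 75th percentile; circles wild type, squares DKO + H2A.Z1, triangles DKO + H2A.Z1ΔC; mean over the gene's probes, 1 array per group). For most genes the 3 symbols nearly coincide, and RPL3L and EEF1A2 are the genes with the widest gaps, with levels of 0.47, -1.17 and -1.70 and of 0.05, -0.02 and -1.02.

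Few members reached the threshold. In full-length against wild-type cells 1 of 75 did, RPL3L, which was lower, while 3.37% of the 4218 named genes measured there did (2.18% lower). In truncated against full-length cells 0 of 74 did, against 4.65% of 4237 named genes (1.53% lower), with EEF1A2 just inside the threshold at -0.9999. In truncated against wild-type cells RPL3L and EEF1A2 did, both lower, against 6.92% of 4263 named genes (3.57% lower). At 1.5-fold the counts were 3, 3 and 5, against 9.39%, 13.1% and 17.9% of named genes. These shares cover all named genes, whose median levels of -0.12, -0.14 and -0.17 lay below those of both member kinds. Few genes of similar signal passed a difference of 1 either. Between the quartiles of the ribosomal protein levels, 0 of 28 other genes did in each comparison. Between those of the factors, 1, 1 and 3 were higher and 2, 1 and 5 lower, of 643, 540 and 539. At 1.5-fold, 3, 7 and 7 of these other genes were higher and 18, 8 and 25 lower. The factor genes had 0, 0 and 1 higher and 2, 2 and 3 lower at 1.5-fold, of 27, 26 and 26. That was a larger share than among those other genes, on few genes and over unlike ranges of signal. Factors of every level were counted, the other genes only between the quartiles. Of the factors past 1.5-fold, EEF1B2 was near background and EEF1A2, EIF2D and EEF2KMT had levels from -1.02 to 0.25. EIF3E had 4.52, 3.80 and 3.81. The members were thus not shown to be steadier or less steady than genes of like signal. In bulk RNA fewer cells of a type and less RNA per cell cannot be told apart.

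The ribosomal protein genes lay close together, with a small common offset in each comparison. In full-length against wild-type cells their median difference was -0.09, with quartiles at -0.12 and -0.05, and 3 of 48 were above 0. In truncated against full-length cells it was 0.24, with quartiles at 0.12 and 0.32, and 43 of 48 were above 0. In truncated against wild-type cells it was 0.14, with quartiles at 0.06 and 0.22, and 41 of 48 were above 0. The factor genes had medians of -0.08, 0.07 and -0.00, with 6 of 27, 20 of 26 and 13 of 26 above 0. All named genes had medians of -0.02, 0.02 and -0.00, with 1959 of 4218, 2203 of 4237 and 2126 of 4263 above 0.

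The subunits did not separate from each other by these medians. The 31 large-subunit genes had medians of -0.10, 0.24 and 0.14, and the 15 small-subunit genes had -0.09, 0.25 and 0.16, in the same order of comparisons. The pair of stalk genes had medians of -0.07, 0.12 and 0.05. With the matrix values the first and second of these were 0.12 and -0.07 for the stalk, 0.15 and -0.01 for the large subunit and 0.10 and 0.04 for the small subunit. RPLP0, the base of the stalk, had levels of 6.59, 6.63 and 6.66, and RPLP1, one of its acidic arms, had 7.79, 7.60 and 7.82.

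The offset was compared with that of other genes of similar brightness, a set chosen after seeing the data. The other named genes whose level lay between the lower and upper quartile of the ribosomal protein levels numbered 28, and their medians were -0.12, 0.21 and 0.11, with 5, 25 and 23 above 0. The ribosomal protein medians exceeded these by 0.023, 0.032 and 0.033, and no measure of error for these differences between medians was available. Over the wider range of levels that the ribosomal proteins span, which reaches down to RPL3L, other genes had medians of -0.00, -0.01 and -0.02. The other genes with levels between the quartiles of the factors had -0.02, 0.01 and -0.02.

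**Figure D2:**
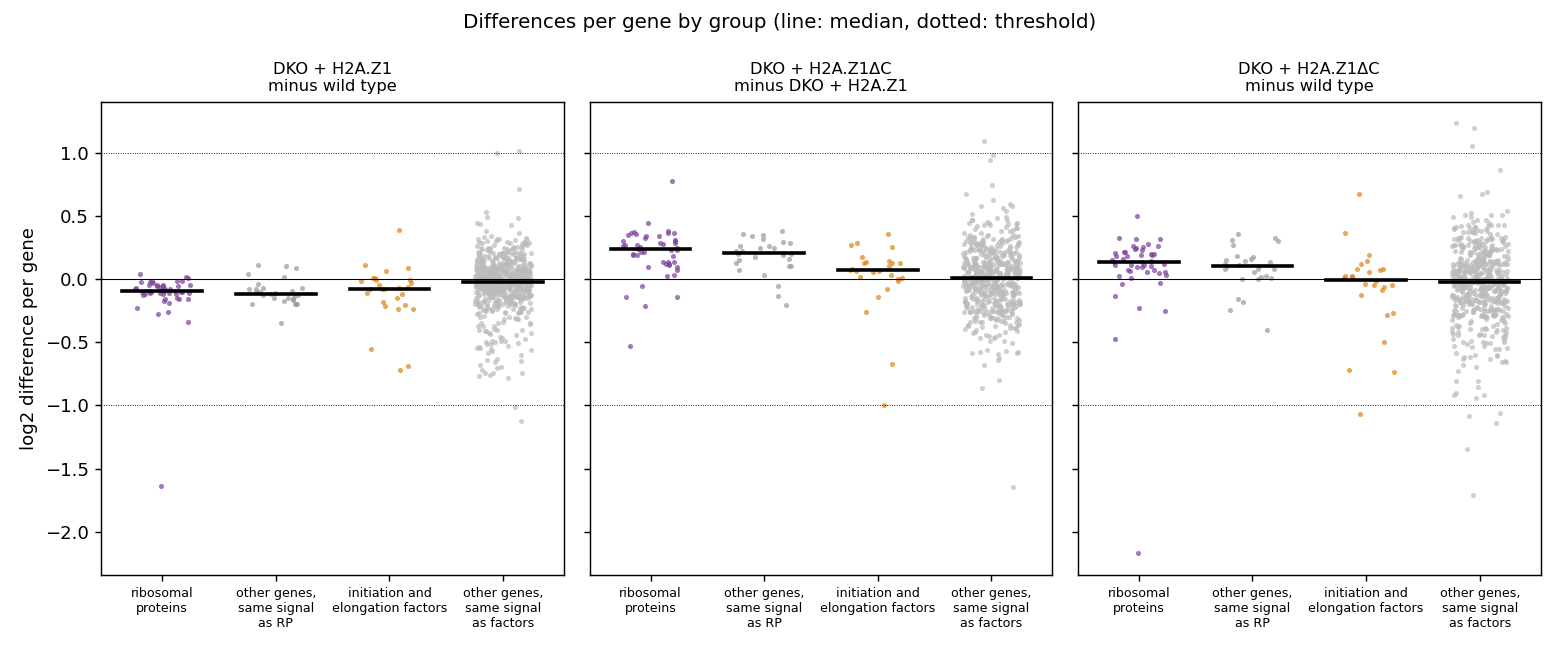
Log2 difference per gene (y axis) in each comparison for ribosomal protein genes, factor genes and the other named genes whose level lies between the quartiles of each of those groups (points, genes; thick line, median; dotted lines, a difference of 1 in either direction). The ribosomal protein medians of -0.09, 0.24 and 0.14 stand beside -0.12, 0.21 and 0.11 for the 28 other genes of like signal.

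The offset was set beside the brightness of single probes. Among probes at a mean level of 6 or more, the median difference between truncated and full-length cells was 0.26 for 78 ribosomal protein probes, 0.22 for 8 factor probes and 0.20 for 142 other named probes. Of those, 76, 7 and 123 were above 0. Among probes below a level of 0 it was -0.46 for 5 ribosomal protein probes, 0.07 for 9 factor probes and 0.01 for 4384 other probes. Those 5 include the 2 probes of RPL3L, at -0.63 and -0.44. At levels of 0 to 4 the median was 0.26 for 8 ribosomal protein probes, against -0.01 for 3871 other probes. Those 8 include the 3 probes of RPL22L1, at 0.60, 0.88 and 0.85. At levels of 4 to 6 it was 0.04 for 6 ribosomal protein probes, against 0.03 for 705 other probes. The order between the classes was thus not even, and the small classes depend on which genes fill them. In full-length against wild-type cells the ribosomal protein medians were -0.21, -0.20, -0.03 and -0.09 from the dimmest class to the brightest. Other named probes had -0.003, 0.003, -0.05 and -0.11 in the same order. The truncated array alone lay on the second slide, so slide and group cannot be told apart in this difference.

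By the scanner values, probes of RPS12, RPS14 and RPL35A differed in sign within the gene in truncated against full-length cells. Probes of RPL37, RPL39L, RPS24, RPL3 and RPL31 did so too, with 0.15 and -0.09 for RPL39L and 0.21 and -0.07 for RPS24. RPS12, a small-subunit protein, has a probe with levels of 7.01, 6.84 and 7.19 on the wild-type, full-length and truncated arrays and another with -2.63, -2.42 and -2.89. Truncated minus full-length was 0.35 on the first and -0.46 on the second. RPS14, also of the small subunit, has probes at wild-type levels of 7.32, 6.07 and 0.14, whose differences were 0.22, 0.20 and -0.84. RPL35A, of the large subunit, has probes at 7.46, 6.88 and -0.66, with differences of 0.42, 0.26 and -0.39. With the matrix values the differences were -0.17 and -0.60 for RPS12, 0.02, -0.08 and -0.65 for RPS14 and -0.03, 0.07 and -0.18 for RPL35A. In all 3 of these genes, the only ribosomal protein genes whose probes spanned 4 or more in level, the brightest probe had a higher difference than the dimmest by the scanner values. So did 4 of the 5 factor genes with such a span, and 21 of the 33 ribosomal protein genes with several probes.

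**Figure D3:**
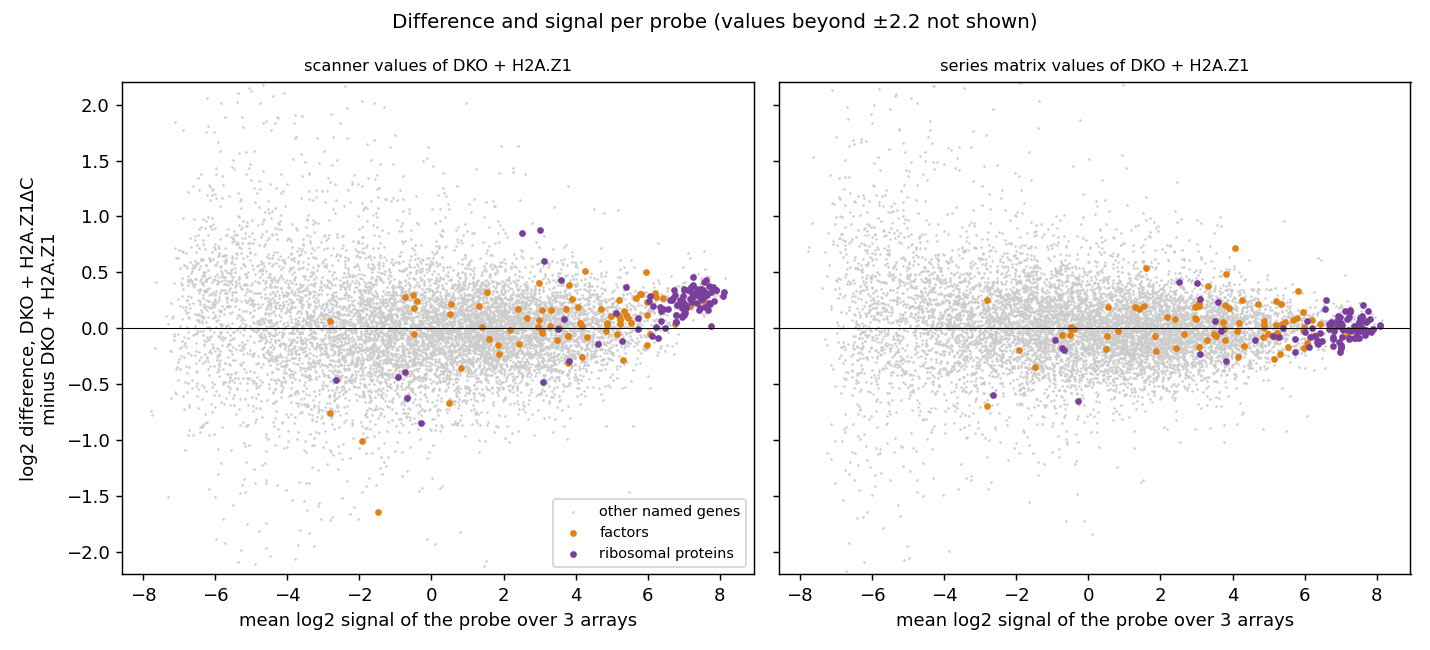
Log2 difference of DKO + H2A.Z1ΔC minus DKO + H2A.Z1 per probe (y axis) against the probe's mean log2 signal over 3 arrays (x axis), with the scanner values of the full-length sample on the left and its series matrix values on the right; purple, ribosomal proteins; orange, factors; grey, other named genes. At a level of 6 or more the purple probes have a median of 0.26 on the left, as the grey ones do at 0.20, and of 0.00 on the right.

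With the matrix values for the full-length sample the offset was absent or turned. The ribosomal protein median became 0.14 in full-length against wild-type cells, with 43 of 48 above 0, and -0.01 in truncated against full-length cells, with 21 of 48 above 0. The 30 other genes of like signal had medians of 0.08 and 0.01 with those values. Quantile normalization of the scanner values gave ribosomal protein medians of 0.00, -0.03 and -0.03 in the 3 comparisons. The direction of the ribosomal protein offset thus differed between ways of scaling and between the sets of values of the full-length sample. The matrix values are counted among the ways of scaling here and below. Only 5, 13 and 21 of the 48 genes kept 1 sign under all of them, and among factors 18 of 27, 13 of 26 and 19 of 26 did. For some ribosomal protein genes only the matrix values turned the sign in full-length against wild-type cells. RPL30, for example, lay between -0.18 and -0.08 without them and at 0.18 with them.

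**Figure D4:**
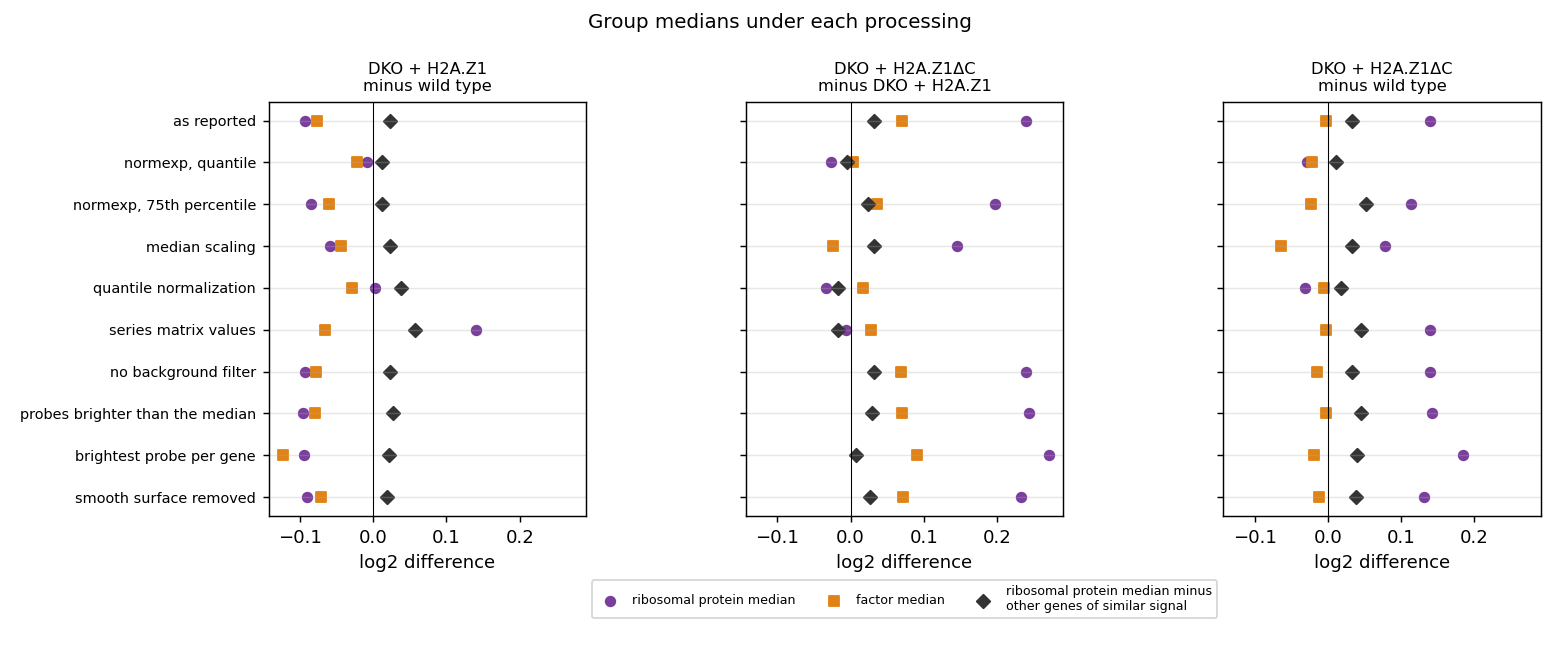
Median log2 difference (x axis) of ribosomal protein genes (circles) and factor genes (squares), and the ribosomal protein median minus that of other genes of similar signal (diamonds), under each way of processing (y axis), 1 panel per comparison. The circles move between -0.03 and 0.27 in the middle panel, while the diamonds lie between -0.02 and 0.03.

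RPL3L was the one ribosomal protein gene far from the others. It encodes a paralog of the large-subunit protein RPL3 that in mammals is made mainly in heart and skeletal muscle. Its levels were 0.47, -1.17 and -1.70 for wild type, full-length and truncated in turn, highest in wild type. The differences were -1.64, a 3.11-fold lower signal, in full-length against wild-type cells and -2.17, 4.50-fold lower, in truncated against wild-type cells. Truncated and full-length cells differed by -0.53, which became -0.15 with the matrix values. Its 2 probes gave -1.65 and -1.62 for full-length minus wild type, and -2.28 and -2.06 for truncated minus wild type. Over the ways of scaling tried, the first comparison lay between -2.03 and -1.497 and the last between -2.23 and -1.93. RPL3 itself had levels of 6.08, 6.06 and 6.18 and differences of -0.01, 0.12 and 0.10.

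The genes beside RPL3L in the RefSeq gene order had smaller differences in full-length against wild-type cells. MSRB1, a methionine sulfoxide reductase, had -0.18, RPS2, a small-subunit protein, had -0.07 and TBL3, a protein of small-subunit assembly, had 0.07. With the matrix values these were -0.53, 0.07 and 0.21, so MSRB1 lay in the direction of RPL3L by either set of values. In truncated against wild-type cells these were -0.67, 0.19 and 0.37.

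RPL22L1, the paralog of RPL22, had the highest difference of any ribosomal protein gene between truncated and full-length cells. Its levels were 2.81, 2.53 and 3.31 for wild type, full-length and truncated in turn. The truncated array was the highest, and the difference from full-length cells was 0.78, within the threshold. Its 3 probes gave 0.60, 0.88 and 0.85, and the matrix values gave 0.36. Against wild type the truncated cells were 0.50 higher, and 0.44 to 0.53 over the ways of scaling. RPL22, which binds RNA in the large subunit, had levels of 6.99, 6.97 and 7.11.

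RPS27L, the paralog of RPS27 and a target of p53 in human cells, had levels of 4.45, 4.20 and 3.98. Wild type was highest and truncated lowest, and the differences were -0.26, -0.22 and -0.47. It was among the 5 ribosomal protein genes that kept 1 sign in full-length against wild-type cells, and its truncated against wild-type difference lay between -0.53 and -0.41 over the ways of scaling. Its 2 probes gave -0.14 and -0.29 in truncated against full-length cells.

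By the scanner values, RPL7L1 and RPL26L1 had differences near the ribosomal protein medians, at -0.12, 0.26 and 0.14 and at -0.10, 0.24 and 0.14. RPL39L had -0.02, 0.03 and 0.01. RPL7L1, a nucleolar relative of RPL7, had levels of 3.63, 3.51 and 3.77, and RPL7 had 7.01, 6.94 and 7.07. RPL26L1 had 7.18, 7.08 and 7.32, and RPL39L had 6.33, 6.31 and 6.34. Probes named for RPL26L1 or RPL39L may also detect their near-identical copies RPL26 and RPL39, so these values are uncertain as to the copy.

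Among the remaining ribosomal protein genes the largest differences stayed under 0.5. RPL13, of the large subunit, had levels of 7.34, 6.999 and 7.20, lowest in full-length cells, with a difference of -0.34 against wild type and -0.34 to -0.14 over the ways of scaling. RPS15, of the small subunit, had 7.62, 7.56 and 7.94, RPS29 had 7.74, 7.65 and 8.02, and RPS3, which lies at the mRNA entry channel, had 7.004, 6.99 and 7.33. In all 3 the truncated array was highest, and their differences from full-length cells of 0.38, 0.37 and 0.34 went down to 0.06, 0.03 and 0.06 under another scaling. RPL37A had 5.31, 5.26 and 5.63, with a truncated against full-length difference of 0.37 that was 0.00 with the matrix values.

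At the low end, RPL37 had levels of 5.06, 4.94 and 4.805 and RPS14, averaged over its probes, had 4.51, 4.42 and 4.28. Both averages were lowest in truncated cells. By the scanner values the brightest probe of each was highest there instead, at 6.46, 6.33 and 6.50 for RPL37 and 7.32, 7.26 and 7.48 for RPS14. The 3 RPL37 probes, at wild-type levels of 6.46, 5.40 and 3.32, gave truncated against full-length differences of 0.17, -0.11 and -0.48, and -0.046, -0.08 and -0.23 with the matrix values. RPLP0, RPS12 and RPL19 were the ribosomal protein genes above 0 in full-length against wild-type cells, at 0.04, 0.02 and 0.01, or at 0.17, 0.34 and 0.29 with the matrix values. The scanner value of RPS12 was the mean of -0.17 on its bright probe and 0.20 on its dim probe.

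Among initiation factors, EIF3E and EIF3H had larger differences from wild type than the other eIF3 subunits measured. eIF3 is the large complex that binds the small subunit and gathers the other initiation factors. EIF3E had levels of 4.52, 3.80 and 3.81 for wild type, full-length and truncated in turn. EIF3H had levels of 4.55, 4.002 and 4.06. For both, wild type was high and the lines with the DKO lay together.

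The EIF3E difference was -0.72 for full-length minus wild type, -0.72 for truncated minus wild type, and 0.01 between the lines with the DKO. Its 3 probes gave -0.78, -0.70 and -0.69 in full-length against wild-type cells, and over the ways of scaling the difference lay between -0.72 and -0.58. The EIF3H differences were -0.55, 0.06 and -0.50 in the order of the comparisons, with all 5 probes between -0.58 and -0.51 in the first. These were within the threshold of 1 and outside the spread of the probes. Since the full-length and truncated differences share the wild-type array, they are not independent.

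The other eIF3 subunits measured had smaller differences from wild type. EIF3I had levels of 4.399, 4.32 and 4.59, EIF3J 3.92, 3.91 and 3.93, and EIF3L 3.69, 3.68 and 3.42. EIF3M had 4.86, 4.65 and 4.74, with -0.21 in full-length against wild-type cells. Truncated minus full-length was 0.27 for EIF3I and -0.26 for EIF3L.

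EIF3E and EIF3H are close in the RefSeq gene order, and several genes between and just beyond them also lay below 0 against wild type. Between EIF3E and MED30, a Mediator subunit, 7 genes were measured, and their median difference was -0.58 in full-length against wild-type cells (-0.74 to -0.02), with 6 of 7 at -0.3 or lower. This count includes EIF3E and EIF3H themselves. Of the other 5 genes 4 lay at -0.3 or lower, with a median of -0.58, and in truncated against wild-type cells 4 of 5 did, with a median of -0.65. EMC2, of a membrane protein insertion complex, had -0.74, MED30 had -0.70, RAD21, a cohesin subunit, had -0.58, ENY2, of the SAGA and TREX-2 complexes, had -0.40 and EBAG9 had -0.02. Over all 7, the median was -0.65 (-0.94 to -0.28) in truncated against wild-type cells and 0.01 in truncated against full-length cells, where that of the other 5 was -0.24. The 9 measured genes among the 25 on either side had medians of -0.05 and 0.03 against wild type, with 1 and 3 at -0.3 or lower. These are scanner values. With the matrix values, full-length minus wild type ran from -0.76 (RAD21) to -0.16 (EBAG9) inside the stretch. Outside it ran from -1.05 (DEPTOR, -0.25 by the scanner values) to 0.29 (AZIN1). Truncated minus full-length then ran from -0.31 (MED30) to 0.31 (RAD21) inside. The ends of this stretch were chosen after its values were seen, and DNA copy number was not analysed here.

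**Figure D5:**
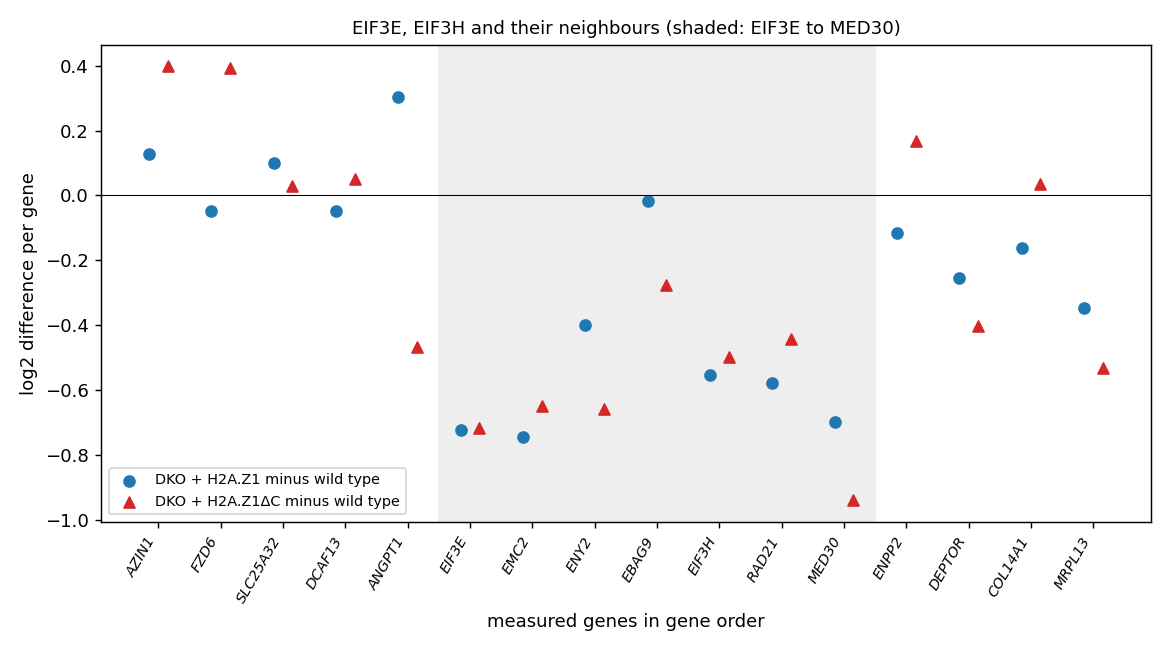
Log2 difference from wild type (y axis) of the measured genes around EIF3E and EIF3H in RefSeq gene order (x axis, evenly spaced); circles, DKO + H2A.Z1; triangles, DKO + H2A.Z1ΔC; shaded, EIF3E to MED30. The scanner values are shown. Within the shading 6 of 7 genes lie at -0.3 or lower for each line, and outside it 1 of 9 circles and 3 of 9 triangles do.

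The factors that carry the initiator tRNA differed little. EIF2S1, EIF2S2 and EIF2S3, the subunits of eIF2, had levels of 5.22, 5.15 and 5.25, of 4.35, 4.28 and 4.41, and of 5.62, 5.57 and 5.70. Of eIF2B, the exchange factor that recharges eIF2 with GTP, EIF2B2 had 2.41, 2.50 and 2.36 and EIF2B3 had 0.40, 0.51 and 0.54. EIF2A, which can bind initiator tRNA outside the eIF2 complex, had 2.96, 2.97 and 3.05.

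EIF2D, which can also deliver tRNA to the small subunit and acts in ribosome recycling, was lowest in truncated cells. Its levels were 0.25, 0.19 and -0.49 for wild type, full-length and truncated in turn. The truncated cells differed by -0.67 from full-length and by -0.73 from wild-type cells, both within the threshold. Its 4 probes all lay below 0 in truncated against full-length cells, at -0.26, -0.67, -1.005 and -0.76 from the brightest to the dimmest, and the gene's value was -0.33 with the matrix values. Over the ways of scaling the difference from wild type lay between -0.79 and -0.53.

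EIF1, which guards start codon selection, was highest in truncated cells. Its levels were 4.26, 4.27 and 4.63, with differences of 0.01, 0.36 and 0.37, and the truncated against full-length value lay between 0.26 and 0.36 over the ways of scaling. EIF1AX, which works with EIF1 on the small subunit, had 4.47, 4.27 and 4.19 on its single probe, highest in wild type. Its differences were -0.20, -0.08 and -0.28.

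Factors of mRNA binding and subunit joining were nearly level across the arrays when averaged over their probes. Single probes of some disagreed in truncated against full-length cells by the scanner values. They ran from -0.15 to 0.27 for EIF4A2, from -0.05 to 0.39 for EIF5 and from -0.11 to 0.26 for EIF5B. EIF4A2, a helicase that unwinds the start of the mRNA, had 5.41, 5.30 and 5.37, EIF4A3 had 6.18, 6.04 and 6.10, and EIF4G2, a relative of the eIF4G scaffold, had 3.32, 3.14 and 3.27. EIF5, which triggers GTP hydrolysis by eIF2, had 4.55, 4.43 and 4.56, and EIF5B, which joins the subunits, had 2.08, 2.15 and 2.15. EIF5A2, the paralog of EIF5A that eases peptide bond formation, had 3.76, 3.52 and 3.78, with differences of -0.24 and 0.26 in the first and second comparison, which were -0.036 and 0.057 with the matrix values. The EIF5A2 probes had unlike mean levels of 6.23, 5.21 and -0.39. They may also detect EIF5A, which had no named probe, so these values are uncertain as to the copy. EIF6, which keeps the large subunit from joining early, had 3.62, 3.62 and 3.61.

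Among elongation factors, EEF2 had levels of 6.19, 6.16 and 6.31 over 5 probes, with differences of -0.03, 0.15 and 0.12. The first and second were 0.11 and 0.0047 with the matrix values. By the scanner values the EEF2 probes ran from -0.31 to 0.32 in truncated against full-length cells. EEF1A2, a paralog of the tRNA carrier eEF1A that in mammals is made in muscle and neurons, had 0.05, -0.02 and -1.02 for wild type, full-length and truncated in turn. The truncated array was low and the other arrays were close together. The difference was -0.9999 in truncated against full-length cells and -1.07, 2.10-fold lower, against wild type.

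The EEF1A2 value rests on 2 of its 4 probes, since the others were not well above background on any array. One of the 2 had levels of 1.04, 0.90 and 0.55 and the other -0.94, -0.94 and -2.59, so their truncated against full-length differences were -0.35 and -1.65. With the matrix values the gene's difference between truncated and full-length cells was -0.19 and that between full-length and wild-type cells was -0.88. The position of the full-length sample thus differed between its sets of values, near wild type in one and near the truncated cells in the other. Against wild type, which does not use that sample, the truncated cells lay between -1.13 and -0.86.

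EEF1B2, a subunit of the exchange factor that recharges eEF1A, was near background on its single probe. Its level was -6.50 on the wild-type and -7.19 on the full-length array, and it was not well above background on the truncated array (-7.69). The full-length against wild-type difference of -0.69 was between -0.69 and -0.02 over the ways of scaling. The truncated signal was at least 2.13-fold lower than that of wild type and at least 1.33-fold lower than that of full-length cells, taking as floor the lowest signal well above background.

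The enzymes that methylate elongation factors also matched the symbol rule. EEF2KMT, which methylates eEF2, had levels of -0.97, -0.58 and -0.29, lowest in wild type. Its differences were 0.39, 0.29 and 0.68, and its 2 probes gave 0.34 and 0.44 in the first comparison. Truncated against wild-type cells lay between 0.62 and 0.68 over the ways of scaling, while with the matrix values full-length against wild-type cells became 0.74 and truncated against full-length cells -0.06. EEF1AKMT1, which methylates eEF1A, had 0.30, 0.06 and 0.23.

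Lists of other genes of the pathway gave few values past the threshold. Of 5 genes for the kinases of eIF2 and the stress response they start, 1 passed in truncated against full-length and against wild-type cells. All named genes had shares of 4.65% and 6.92% there. The gene was CHAC1, a glutathione-degrading enzyme induced in that response, which was higher in truncated cells. Its levels were 0.30, 0.19 and 1.504, with a difference of 1.31 from full-length cells, 0.78 with the matrix values, and of 1.21 from wild type. ATF4, the transcription factor of the response, had 5.56, 5.37 and 5.80, with 0.43 in truncated against full-length cells, or 0.24 with the matrix values. ASNS, asparagine synthetase, had 2.80, 2.68 and 2.61, highest in wild type by the scanner values. Its full-length against wild-type difference was -0.13, or 0.15 with the matrix values, by which full-length was highest. The kinase genes EIF2AK1 and EIF2AK2 had -0.05 and 0.29 in truncated against full-length cells, or -0.03 and -0.02 with the matrix values.

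Counts in the following lists stand beside 3.37%, 4.65% and 6.92% of all named genes, shares at which lists this short hold few such genes. Of 22 genes for ribosome biogenesis, 0 passed in any comparison, with medians of -0.03, 0.18 and 0.09 and 7, 18 and 14 above 0. NPM1, a nucleolar chaperone, had levels of 6.73, 6.53 and 6.74, and NIP7, of large-subunit assembly, had 5.90, 5.40 and 5.77. Their truncated against full-length median was 0.14 with the matrix values. Nor did any pass among aminoacyl-tRNA synthetases (0 of 12), termination and recycling (0 of 5) or the TOR pathway (0 of 3). Only genes with a named probe are counted, so the lists cover part of each pathway, and MTOR itself had none. The TOR genes measured, RPS6KB1, RPS6KA1 and AKT1, had 0.56, -0.24 and 0.94 in truncated against wild-type cells. Of 10 other ribosome-bound proteins 0 passed, with RACK1, a scaffold on the small subunit, at 7.84, 7.80 and 8.11 and PDCD4, an inhibitor of eIF4A, at 0.66, 0.42 and -0.20. In truncated against full-length cells RACK1 had 0.31, or 0.035 with the matrix values, and PDCD4 had -0.62, or -0.09.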

How the data were processed

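Total RNA of 3 DT40 lines was measured on Agilent arrays, 1 per group, with groups from the labels. Agilent Feature Extraction 11.5.1.1 made the scanner files, per the file headers, and their deposited processed signal is a linear intensity, corrected for background and spatial trend within the array. The headers give galGal3 for the annotation. A deposited series matrix holds intensity values whose making is not given in the sources used here. Its wild-type and truncated columns equal the processed signal times 1.07 and 1.53, and its full-length column follows no single factor (median ratio 1.13). Its column medians were 119, 121 and 126, and its centring and source array for that column stay unknown. Per-sample columns left unused numbered 0.

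Control spots and flagged spots were left out, which kept 43596 of 43603 probes. Each log2 processed signal was set against the 75th percentile of its array (signals of 1455, 1558 and 1039 for wild type, full-length and truncated), averaged over spots, then over probes. Probes were compared where both arrays had them well above background. The number of arrays limits the precision. Names came from RefSeq accessions in a table of assembly GRCg7b (27.4% of probes named), used for names and gene order only. No sequence of a probe or gene was used here.

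Genes named were the 5 ribosomal protein and 5 factor genes at either end of each comparison, those past the threshold, those with only a bound, and pairs of paralogs. Some genes that met this rule are not reported here. Neighbours and a few members giving each complex were added after values were seen. Members and lists were chosen with earlier results of these data known. Alternatives were normexp (limma 3.58.1 in R 4.3.3, offset 50, on the median signal and local background, as the files give no mean signal) with quantile or 75th percentile scaling, median scaling, quantile normalization, matrix values, other probe filters, the brightest probe per gene, removal of a smooth surface (degree 5) and a 1.5-fold threshold. Calculations used Python 3.11.15, numpy 2.4.6 and pandas 2.3.3, and were tested on simulated data.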

Additional observations from a re-analysis of the deposited data

How the results depend on the processing

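With 1 array per group no replicate could be left out. No paired analysis was possible because each group has a single array. The level of ribosomal protein genes minus that of factor genes was not run, since signals of different probes are not comparable. The ribosomal protein median in full-length against wild-type cells (-0.09) became -0.0077 with normexp and quantile normalization, 0.0026 with quantile normalization and 0.14 with matrix values. In truncated against full-length cells (0.24) it became -0.026, -0.033 and -0.0065 in the same order, and 0.15 with median scaling. In truncated against wild-type cells (0.14) it became -0.028 and -0.031 with the first and second of these. The factor median in truncated against full-length cells (0.07) became -0.023 with median scaling. The ribosomal protein median minus the factor median went from -0.016 to 0.21 with matrix values in full-length against wild-type cells. In truncated against full-length cells it went from 0.17 to -0.030 with normexp and quantile normalization, -0.051 with quantile normalization and -0.034 with matrix values. In truncated against wild-type cells it went from 0.14 to -0.0063 and -0.026 with the first and second of these. The count of changed members went from 1, 0 and 2 to 3, 3 and 5 at 1.5-fold. It became 1 in truncated against full-length cells with median scaling or quantile normalization, and 1 in truncated against wild-type cells with either normexp setting, with probes brighter than the median or with the brightest probe per gene. The ribosomal protein median minus that of other genes over their full range of levels went from -0.090 to -0.025 with quantile normalization and 0.15 with matrix values in full-length against wild-type cells, from 0.25 to 0.0034 (normexp and quantile), 0.00077 (quantile) and -0.0048 (matrix) in truncated against full-length cells, and from 0.16 to -0.019 and -0.017 (both quantile settings) in truncated against wild-type cells. Against other genes between the quartiles of their levels, a set added after seeing the data, it was 0.023, 0.032 and 0.033 and lay between 0.012 and 0.058, -0.018 and 0.032, and 0.011 and 0.052. Of 782 values of single genes 731 moved by less than the spread between probes, 51 moved further, 22 of them with matrix values, and 0 called values turned sign. For these values the cause was not tested. The median of all named genes lay between -0.08 and 0.08 under each scaling, and reached -0.10 without a background filter. Signal over background limits EEF1B2 and 2 probes of EEF1A2.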
